A study of Capra hircus with 9 samples.

Results

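The 9 genes described here are transcripts by which tissue macrophages are usually recognised: CSF1R, C1QA, C1QB, C1QC, CD14, MRC1, CD163, CD68 and AIF1. They were taken by gene from a table of 21224 genes measured in goat submandibular glands, all transcripts of a gene were summed, and all 9 were found and passed the filter on low counts. The submandibular gland is a major salivary gland, and 9 glands of healthy female Lubo goats were sequenced as total RNA without ribosomal RNA, 3 at 1 month of age (group A), 3 at 12 months (group B) and 3 at 24 months (group C). Every animal was fasted and anaesthetised with xylazine hydrochloride before slaughter, and a library holds RNA of a whole piece of gland, so its cell types are not separated. The study asked how transcript levels, in particular of immune genes, change with the age of the gland. Levels are given in counts per 1000000 counts (CPM), computed from the deposited expected counts with library sizes scaled by the trimmed mean of M-values (TMM), and they are not corrected for transcript length, so levels of different genes are not ranked against each other.

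Macrophages are resident phagocytes that arise from embryonic precursors and from blood monocytes, and in salivary glands they lie in the connective tissue around ducts and acini. They depend on signals through the receptor CSF1R for survival, and they clear dead cells, bind microbes through pattern and scavenger receptors, and degrade what they take up in lysosomes. C1q, the recognition part of the classical complement pathway, is made largely by macrophages and dendritic cells. In bulk RNA, fewer macrophages and less of a transcript in each macrophage cannot be told apart.

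Library depth was from 1.15e+07 to 2.49e+07 expected counts, where 3 counts were worth from 0.149 to 0.196 CPM, and every member lay far above that level in every library. The lowest member count was 43 for AIF1 in 24-month replicate 3, and the highest was 7927 for C1QB in 1-month replicate 3. The labelled tissue was checked on 8 genes of salivary epithelium, whose summed level was from 6026 to 12692 CPM in the 12- and 24-month libraries and from 574 to 2544 CPM in the 1-month libraries. The lowest of these was 1-month replicate 2, where AQP5, the water channel of acinar cells, was at 0.507 CPM. The 3 libraries from 1-month-old goats all carried genes of developing T cells: RAG1, a recombinase of immature lymphocytes, was from 671 to 4357 CPM there and at most 0.840 CPM in the other 6, and FOXN1, a factor of thymic epithelium, was from 5.73 to 82.4 CPM there and at most 0.106 CPM elsewhere. The 1-month libraries were also less alike, with Pearson r between pairs of libraries over 14860 genes from 0.803 to 0.940, against 0.959 to 0.964 at 12 months and 0.917 to 0.956 at 24 months. By these markers all 3 of the 1-month libraries hold transcripts of thymus. In 1-month replicate 2 the salivary genes KLK1 and SLC12A2 were also low, at 9.17 and 45.6 CPM. They were at least 338 and 647 CPM in every other library, so how much gland that library holds was not shown. A 1-month level is therefore that of the labelled sample and was not shown to be that of gland alone. Because all 3 of the 1-month libraries carried thymic transcripts, age and these transcripts cannot be told apart as the source of a difference from 1 month.

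Most of the macrophage genes were higher at 1 month of age than later. Their summed level was 565, 663 and 2066 CPM at 1 month, 254, 192 and 205 CPM at 12 months, and 214, 274 and 326 CPM at 24 months. The 6 libraries from older goats were thus all below the 3 from 1-month-old goats, and 1-month replicate 3 stood far above the other 8 libraries. That library had the highest value of the 9 libraries for all 9 members. Its level was from 1.09 times (CD68) to 8.57 times (AIF1) that of 1-month replicate 2, and from 3.00 times (CSF1R) to 4.40 times (C1QC) that of 1-month replicate 1.

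**Figure D1:**
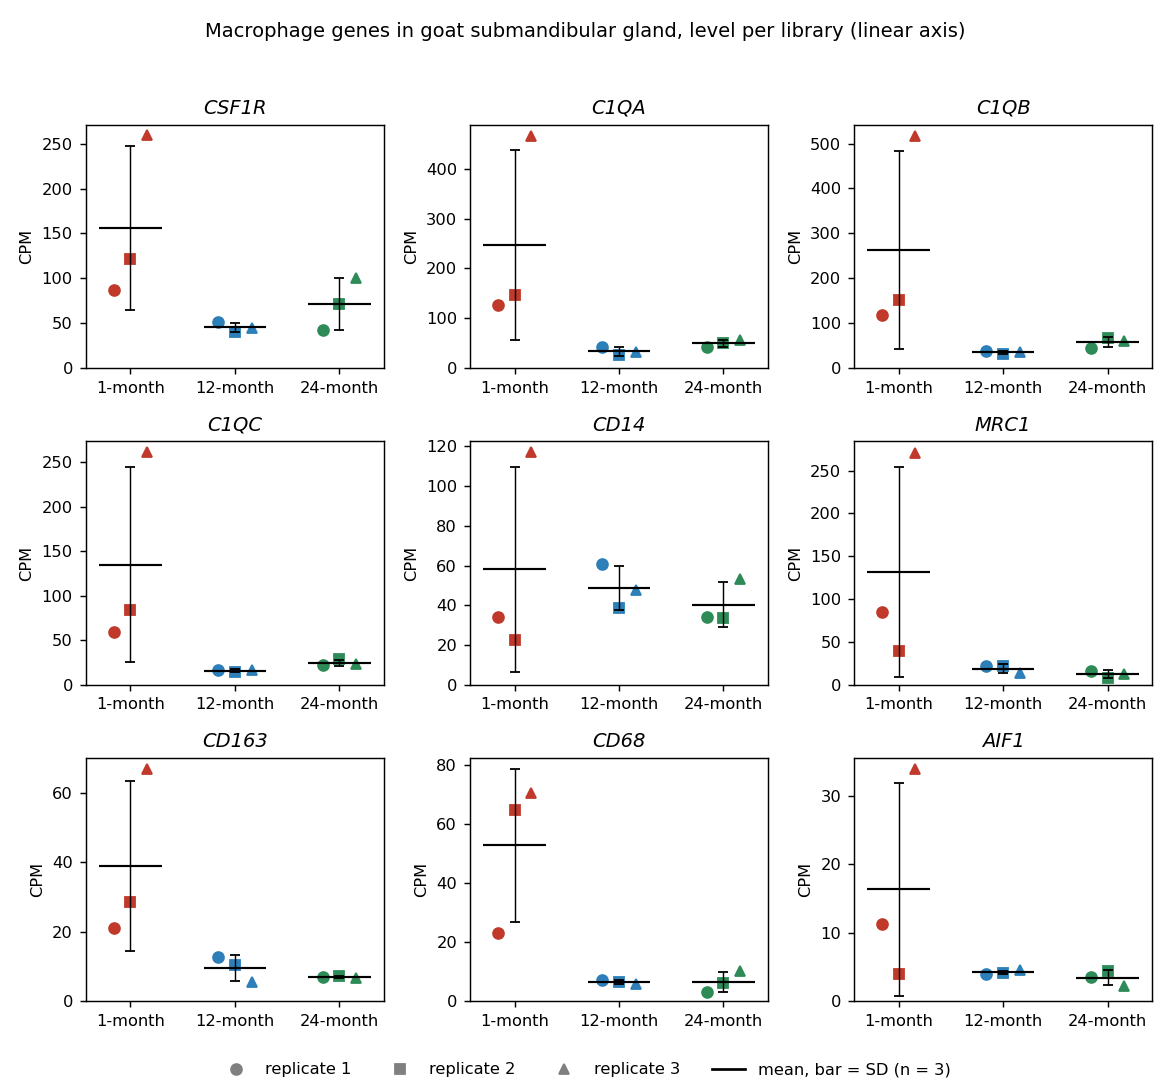
Level of each macrophage gene in each library, in CPM on a linear axis, by age; circles, squares and triangles are replicates 1, 2 and 3, and the line and bar are the mean and SD (n = 3). The triangle of the 1-month group is the highest point in all 9 panels, and for CD14 and AIF1 the 1-month group overlaps both older groups.

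Each pair of ages was compared by edgeR's quasi-likelihood test over all genes, and a gene was called when its adjusted p (Benjamini-Hochberg, over all genes tested) was under 0.05 and its absolute log2 fold change over 2. The 3 libraries of an age came from 3 goats, so the tests measure the spread between samples of different animals. At 1 month that spread also takes in how far the samples differed in thymic and salivary transcripts. Between 1 and 12 months, 5 of the 9 members were called, all lower at 12 months, against 9.36% of the 14617 genes tested that were called lower. By the adjusted p alone 7 members were lower, against 11.7% of all genes, and for 7 members all 12-month libraries were below all 1-month libraries, against 26.9% of all genes. Between 1 and 24 months, 6 of 9 were called lower, against 9.01% of 14691 genes. The adjusted p alone gave the same count of 6, against 10.4% of all genes, and 6 members did not overlap between those ages, against 23.3%. Between 12 and 24 months no member was called by edgeR, and neither was any of the 14073 genes tested, a background of 0%. The median log2 fold change of the 9 members was -2.73 between 1 and 12 months and -2.19 between 1 and 24 months, where the medians over all genes tested were -0.02 and -0.01. The 1-month libraries serve in both comparisons, which are therefore not independent of each other.

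The counts of calls changed when single libraries were left out. Without 1-month replicate 3, the library with the highest member levels, 3 members were called between 1 and 12 months and 2 between 1 and 24 months, against 8.59% and 7.87% of all genes called lower, and the median log2 fold change of the members became -1.72 and -1.39. Without 1-month replicate 2, the library lowest in salivary epithelium, 7 were called in each of those comparisons, against 10.2% and 9.65% of all genes. Without 1-month replicate 1, 6 were called in each, against 9.23% and 8.83%. Leaving out any single library of the older group, 12-month replicate 1, 2 or 3 or 24-month replicate 1, 2 or 3, left 0 members called, with adjusted p-values of edgeR's quasi-likelihood test no lower than 0.0645 between 1 and 12 months and no lower than 0.0511 between 1 and 24 months. In those fits the calls over all genes also fell, to between 0 and 110 at 12 months and between 306 and 1338 at 24 months. The fitted changes of the members stayed about as large, with a median log2 fold change from -2.81 to -2.52 at 12 months and from -2.35 to -2.09 at 24 months. An unadjusted p under 0.05 was kept by 7 members at 12 months, against 25.4 to 27.2% of all genes, and by 6 or 7 at 24 months, against 24.5 to 32% of all genes.

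**Figure D2:**
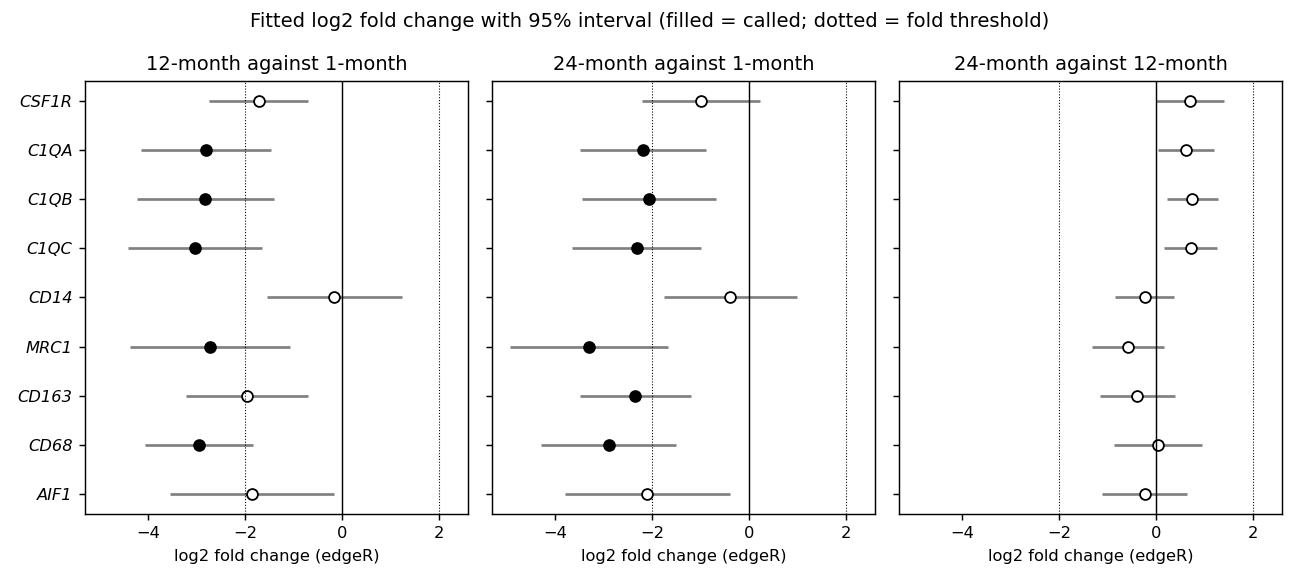
Fitted log2 fold change of each macrophage gene (older against younger group) with its 95% interval, for the 3 pairs of ages; filled points were called, and the dotted lines mark a log2 fold change of 2. In the comparisons with 1-month goats all points lie below 0, with CD14 nearest to 0, and between 12 and 24 months the points lie on both sides of 0 and none was called.

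CSF1R is the receptor for the growth factors CSF1 and IL34, on which macrophages depend. It was at 86.7, 122 and 260.2 CPM at 1 month, 50.7, 40.2 and 44.6 CPM at 12 months, and 42.0, 71.0 and 101 CPM at 24 months. The 12-month libraries lay below all 1-month libraries, whereas 24-month replicate 3 lay above 1-month replicate 1, so the 1- and 24-month groups overlapped. CSF1R was 3.30-fold lower at 12 months than at 1 month (log2 fold change -1.72, SE 0.430, edgeR adjusted p = 0.0374), which passed the p threshold and not the fold threshold. Between 1 and 24 months its log2 fold change was -1.00 (SE 0.530, edgeR adjusted p = 0.219, 95% interval from -2.21 to 0.21). Without 1-month replicate 3 the 12-month value became -1.20 (edgeR adjusted p = 0.0560).

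Of the ligands and signalling partners of CSF1R, some passed the test and others did not. CSF1, the main ligand, was at 125, 61.6 and 168 CPM at 1 month and from 39.8 to 85.3 CPM in the 6 older libraries, with log2 fold changes of -0.72 at 12 months and -0.85 at 24 months (edgeR adjusted p = 0.200 and 0.231). IL34, the other ligand, was from 3.06 to 7.21 CPM at 1 month and from 2.33 to 5.24 CPM later, and did not pass the test (log2 fold change -0.30 and -0.32, edgeR adjusted p = 0.662 and 0.734). Of the 10 genes of the CSF1 receptor axis, 8 were tested, and 4 were called lower at both older ages, against 9.36% and 9.01% of all genes. They were CSF2RA and CSF2RB, the chains of the receptor for the related factor CSF2, INPP5D, a lipid phosphatase of blood cells, and CBL, a ubiquitin ligase that ends receptor signalling. CSF2RB fell from 71.7, 107 and 191 CPM at 1 month to between 18.0 and 26.7 CPM at 12 months and between 13.2 and 31.3 CPM at 24 months (log2 fold change -2.48 and -2.43, edgeR adjusted p = 0.0136 and 0.0181). CSF2RA changed by -2.44 and -2.30 on the log2 scale (edgeR adjusted p = 0.0143 and 0.0144). INPP5D and CBL were highest in 1-month replicate 2, at 211 and 968 CPM, the library with the highest T cell genes, and not in replicate 3 as CSF1R was.

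The 3 chains of C1q, the protein that binds antibody complexes and dying cells and starts the classical complement pathway, are encoded by C1QA, C1QB and C1QC. In the RefSeq annotation of the goat assembly ARS1.2 these genes are neighbours on the same chromosome, in the order C1QA, C1QC, C1QB. C1QA was at 126, 147 and 467 CPM at 1 month, 42.5, 25.9 and 31.2 CPM at 12 months, and 41.2, 49.7 and 56.3 CPM at 24 months. C1QB was at 119, 152 and 518 CPM at 1 month, 38.0, 31.4 and 36.1 CPM at 12 months, and 45.0, 65.7 and 60.5 CPM at 24 months. C1QC was at 59.4, 84.2 and 261 CPM at 1 month, 16.7, 13.7 and 16.2 CPM at 12 months, and 22.2, 28.6 and 22.8 CPM at 24 months. For each chain the 1-month libraries lay above all 6 older libraries, and the oldest goats lay above the 12-month goats except that 12-month replicate 1 was within the 24-month range for C1QA.

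All 3 chains were called lower at both older ages. C1QC fell 8.23-fold between 1 and 12 months (log2 fold change -3.04, SE 0.581, edgeR adjusted p = 0.0182) and also fell between 1 and 24 months (log2 fold change -2.32, SE 0.581, edgeR adjusted p = 0.0300). C1QA fell 7.03-fold and 4.57-fold (log2 fold change -2.81 and -2.19, edgeR adjusted p = 0.0207 and 0.0331). C1QB fell 7.07-fold and 4.18-fold (log2 fold change -2.82 and -2.06, edgeR adjusted p = 0.0230 and 0.0488). Without 1-month replicate 3, C1QA and C1QC were still called at 12 months (log2 fold change -2.03 and -2.20, edgeR adjusted p = 0.0195 and 0.0136), and C1QB passed the p threshold only (-1.94, edgeR adjusted p = 0.0155). Without that library no chain was called at 24 months, where the log2 fold changes were -1.39 for C1QA, -1.16 for C1QB and -1.46 for C1QC (edgeR adjusted p = 0.0813, 0.140 and 0.0710).

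The proportions of the chains varied little over the libraries. Expected counts of C1QB per count of C1QA were from 0.894 to 1.32 over the 9 libraries, and counts of C1QC per count of C1QA were from 0.392 to 0.574. These are ranges of 1.48-fold and 1.46-fold, while the CPM of C1QA itself ranged from 25.9 to 467. The ratios of the 3 ages overlapped for both. No test of these ratios is given, because 3 against 3 libraries cannot go below p = 0.1 in a two-sided exact permutation test.

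C1R and C1S, the proteases that C1q activates and that stromal cells also make, were not called. C1R was at 124, 56.7 and 223 CPM at 1 month and from 26.0 to 56.6 CPM in the older libraries, with the lowest 1-month value just above the highest older one (log2 fold change -1.78 and -1.41, edgeR adjusted p = 0.0518 and 0.0884). C1S was at 70.4, 29.5 and 142 CPM at 1 month and from 29.6 to 52.5 CPM later, with overlapping groups (log2 fold change -1.11 and -0.67, edgeR adjusted p = 0.166 and 0.418). Of 16 complement genes, 4 of 15 tested were called lower at 12 months and 4 of 16 at 24 months, against 9.36% and 9.01% of all genes. None was called higher. The called genes at both ages were C2, a protease of the classical pathway, and CFB, CFD and CFP of the alternative pathway. CFP, which encodes properdin, fell from 12.8, 13.1 and 66.0 CPM to between 1.42 and 2.96 CPM in the older libraries (log2 fold change -3.79 and -3.69, edgeR adjusted p = 0.0205 and 0.0157). CFD fell from 69.4, 118 and 251 CPM to between 14.3 and 26.4 CPM (log2 fold change -3.19 and -2.59, edgeR adjusted p = 0.0115 and 0.0176). C2 and CFB changed by -4.18 and -3.46 at 12 months and by -2.68 and -3.15 at 24 months (edgeR adjusted p = 0.0154, 0.0273, 0.0286 and 0.0215).

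CD14, a receptor that hands bacterial lipopolysaccharide to TLR4, was the member that differed least between 1 month and each older age. It was at 34.3, 22.7 and 117 CPM at 1 month, 60.5, 38.3 and 47.7 CPM at 12 months, and 33.9, 33.4 and 53.4 CPM at 24 months. The 3 groups overlapped, and 1-month replicate 2 had the lowest value of all libraries while replicate 3 of the same age had the highest. Its log2 fold change was -0.16 at 12 months (SE 0.590, 95% interval from -1.56 to 1.24, edgeR adjusted p = 0.853) and -0.39 at 24 months (SE 0.596, 95% interval from -1.75 to 0.97, edgeR adjusted p = 0.682). With intervals this wide, CD14 was not shown to be level between ages. Without 1-month replicate 3 the sign turned, to 0.78 at 12 months and 0.58 at 24 months (edgeR adjusted p = 0.173 and 0.468).

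Within a library, CD14 stood in another proportion to C1q at each age. Counts of CD14 per count of C1QA were 0.273, 0.155 and 0.251 at 1 month, 1.42, 1.48 and 1.53 at 12 months, and 0.822, 0.671 and 0.947 at 24 months. No pair of ages overlapped, and each pair gave p = 0.1 in a two-sided exact permutation test of the log2 ratios, which is the smallest p that 3 against 3 can give. The mean log2 ratio was higher by 2.75 at 12 months and by 1.88 at 24 months than at 1 month. C1QA itself fell 7.03-fold and 4.57-fold to these ages, and a gene that falls less gains in its ratio to C1QA. The median log2 fold change over all genes tested was -0.02 and -0.01. Larger ratios than at 1 month are therefore not particular to CD14, and the share of all genes with such ratios was not computed. CD14 made from 3.42 to 6.06% of the summed member CPM at 1 month, from 20.0 to 23.9% at 12 months and from 12.2 to 16.4% at 24 months.

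Of the 10 other genes of lipopolysaccharide sensing, all tested, none was called at 12 months and 1 was called lower at 24 months. Over all genes 9.36% and 9.01% were called lower. The gene called was LBP, the serum protein that carries lipopolysaccharide to CD14. LBP was at 5.39, 1.85 and 2.15 CPM at 1 month and 2.56, 0.0565 and 0.135 CPM at 12 months. At 24 months it was at 0, 0.116 and 0.212 CPM (log2 fold change -4.68, edgeR adjusted p = 0.0196). In the 24-month libraries 3 counts were worth from 0.149 to 0.168 CPM, so the size of this fitted change is uncertain. TLR4, the signalling receptor, was from 3.70 to 16.5 CPM at 1 month, from 6.54 to 10.5 CPM at 12 months and from 7.39 to 10.8 CPM at 24 months, and its log2 fold changes were -0.01 and 0.26 (edgeR adjusted p = 0.989 and 0.780). LY96, which encodes the TLR4 partner MD-2, was at 12.0, 3.26 and 24.6 CPM at 1 month and from 15.9 to 38.8 CPM in the older libraries (log2 fold change 1.19 and 0.86, edgeR adjusted p = 0.224 and 0.397). The median log2 fold change of the list was -0.04 at 12 months and -0.22 at 24 months.

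MRC1, the mannose receptor that takes up glycoproteins with terminal mannose, had the largest fall of the members between 1 and 24 months. It was at 84.6, 38.9 and 271 CPM at 1 month, 21.3, 21.6 and 13.3 CPM at 12 months, and 16.1, 7.56 and 12.9 CPM at 24 months. All older libraries lay below the lowest 1-month library. MRC1 fell 6.62-fold to 12 months (log2 fold change -2.73, SE 0.696, edgeR adjusted p = 0.0391) and 9.86-fold to 24 months (log2 fold change -3.30, SE 0.714, edgeR adjusted p = 0.0189). Without 1-month replicate 3 it was called at 24 months (-2.26, edgeR adjusted p = 0.0346) and was past neither threshold at 12 months (-1.72, edgeR adjusted p = 0.0577).

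CD163, the receptor that clears haemoglobin bound to haptoglobin, is listed in the table by its product name, scavenger receptor M130. It was at 21.1, 28.7 and 67.0 CPM at 1 month, 12.7, 10.3 and 5.41 CPM at 12 months, and 6.90, 7.33 and 6.78 CPM at 24 months. The older libraries did not overlap the 1-month libraries, and the highest 24-month value was 1.08 times the lowest. CD163 fell 5.09-fold to 24 months (log2 fold change -2.35, SE 0.502, edgeR adjusted p = 0.0184), and at 12 months it passed the p threshold and not the fold threshold (log2 fold change -1.97, SE 0.529, edgeR adjusted p = 0.0454). Without 1-month replicate 3 the values were -1.39 at 12 months and -1.75 at 24 months (edgeR adjusted p = 0.0944 and 0.0504). CD163 had 2 RefSeq transcripts, which held 81.7% and 18.3% of its counts pooled over the 9 libraries. In each other member 1 transcript held at least 94.2% of the pooled counts. Single libraries differed: the second CD163 transcript exceeded the first in 12-month replicates 2 (110.88 against 71.78 counts) and 3 (69.04 against 29.03). It also did so in 24-month replicate 2 (129.07 against 18.21), and in no other library. A new transcript of MRC1 held 66.08 counts against 85.88 in 24-month replicate 2. A new transcript of AIF1 held 17.75 against 25.25 in 24-month replicate 3.

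Of the other scavenger and uptake receptors, 5 of 17 tested were called lower at 12 months and 3 of 16 at 24 months, against 9.36% and 9.01% of all genes, and none was called higher. SIGLEC1, a sialic acid receptor of tissue macrophages, fell from 119, 103 and 803 CPM at 1 month to between 5.50 and 21.8 CPM in the older libraries (log2 fold change -5.49 and -4.58, edgeR adjusted p = 0.0141 and 0.0173). TIMD4, a receptor for phosphatidylserine on dying cells, fell from 8.83, 18.4 and 30.2 CPM to between 1.02 and 3.07 CPM (log2 fold change -3.02 and -2.95, edgeR adjusted p = 0.0145 and 0.0190). MARCO, a scavenger receptor of some tissue macrophages, was at 14.0, 0.580 and 87.2 CPM at 1 month and at 0 counts in all 6 older libraries. Against a floor of 3 counts per library its 1-month mean was at least 201-fold higher than at 12 months and at least 214-fold higher than at 24 months, with edgeR adjusted p = 0.0525 and 0.0267. These bounds were 43.1-fold and 45.9-fold without 1-month replicate 3. STAB1, stabilin-1, fell at 12 months (log2 fold change -2.29, edgeR adjusted p = 0.0301) and missed the thresholds at 24 months (-1.94, edgeR adjusted p = 0.0515), but its reads may be shared with entries of the table named stabilin-1-like. Other genes of the list had their higher values in older goats without passing the test. GAS6, a bridge between dying cells and their receptors, was at 43.0, 7.83 and 45.0 CPM at 1 month, from 49.1 to 78.7 CPM at 12 months and from 79.8 to 119.6 CPM at 24 months, so that both older groups lay above the 1-month group (log2 fold change 1.14 and 1.70, edgeR adjusted p = 0.204 and 0.0877). MERTK, a receptor for GAS6, was at 20.3, 11.4 and 32.5 CPM at 1 month and from 40.0 to 68.1 CPM at 24 months, again without overlap (log2 fold change 1.39, edgeR adjusted p = 0.0706). The median log2 fold change of this list was -1.67 at 12 months and -1.72 at 24 months, and it was the same with MARCO set to its bound.

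CD68, a glycoprotein of the macrophage lysosome membrane, was the member with the smallest adjusted p in both comparisons with 1-month goats. It was at 23.2, 64.7 and 70.5 CPM at 1 month, 7.28, 6.64 and 5.86 CPM at 12 months, and 3.24, 6.22 and 10.1 CPM at 24 months. The older libraries did not overlap the 1-month libraries, and here 1-month replicates 2 and 3 were close to each other. CD68 fell 7.73-fold to 12 months (log2 fold change -2.95, SE 0.469, edgeR adjusted p = 0.0119) and 7.44-fold to 24 months (log2 fold change -2.90, SE 0.610, edgeR adjusted p = 0.0176). It was called at both ages without 1-month replicate 3 as well (-2.74 and -2.67, edgeR adjusted p = 0.0240 and 0.0361).

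Most other lysosome genes were not called. Of 15 listed genes, 2 of 15 tested were called lower at 12 months and 2 of 14 at 24 months, against 9.36% and 9.01% of all genes. The same genes were called at both ages: LAPTM5, a lysosome protein of blood cells, and GPNMB, a glycoprotein of lipid-rich macrophages and other cells. LAPTM5 fell from 586, 2329 and 726 CPM to between 49.1 and 79.1 CPM (log2 fold change -4.42 and -3.91, edgeR adjusted p = 0.0111 and 0.0102), and its highest value was in 1-month replicate 2. GPNMB fell from 18.2, 46.5 and 22.4 CPM to between 1.26 and 6.81 CPM (log2 fold change -2.62 and -3.66, edgeR adjusted p = 0.0356 and 0.00942). The median log2 fold change of the lysosome list was -0.64 at 12 months and -0.20 at 24 months.

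AIF1, which encodes the actin-binding protein IBA1 of macrophages and microglia, was the member with the fewest counts. It was at 11.2, 3.95 and 33.8 CPM at 1 month, 3.96, 4.14 and 4.51 CPM at 12 months, and 3.60, 4.42 and 2.28 CPM at 24 months. Replicate 2 of the 1-month goats lay among the older libraries, so the groups overlapped. AIF1 was not called at 12 months (log2 fold change -1.87, SE 0.714, edgeR adjusted p = 0.107) or at 24 months (log2 fold change -2.10, SE 0.741, edgeR adjusted p = 0.0846). Without 1-month replicate 2 it was called at both ages (-2.42 and -2.59, edgeR adjusted p = 0.00783 and 0.00776). In those fits 10.2% and 9.65% of all genes were called lower, and 43.7% and 28.3% had an adjusted p under 0.05. Without 1-month replicate 3 the values of AIF1 were -0.84 and -1.05 (edgeR adjusted p = 0.288 and 0.341).

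Among 12 genes of the phagocyte oxidase, its partners and Src family kinases, all tested, 8 were called lower at 12 months and 7 at 24 months. Over all genes 9.36% and 9.01% were called lower. None of the 12 was called higher. CORO1A and RAC2, actin regulators of all leukocytes, fell from 234, 1362 and 322 CPM and from 184, 1273 and 319 CPM at 1 month to at most 23.9 and 35.5 CPM later (log2 fold change at 12 months -5.98 and -5.10, edgeR adjusted p = 0.0103 and 0.0134). MPEG1, a pore-forming protein of phagosomes, fell from 75.1, 159 and 218 CPM to between 23.6 and 38.6 CPM (log2 fold change -2.47 and -2.06, edgeR adjusted p = 0.0143 and 0.0216).

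Of the 13 myeloid transcription factors, 2 were called lower at 12 months and 1 at 24 months, against 9.36% and 9.01% of all genes. IRF8, needed for monocyte and dendritic cell development, fell from 20.9, 25.3 and 61.6 CPM to between 4.08 and 7.30 CPM (log2 fold change -2.74 and -2.42, edgeR adjusted p = 0.0137 and 0.0200). SPI1, which encodes PU.1, was at 9.21, 26.9 and 57.6 CPM at 1 month and from 4.42 to 10.1 CPM later, and was called at 12 months and missed the thresholds at 24 months (log2 fold change -2.60 and -1.88, edgeR adjusted p = 0.0352 and 0.0878). The median log2 fold change of the 13 factors was -1.21 at 12 months and -0.96 at 24 months.

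Of 8 tested Fc receptors and adaptors, 2 were called lower at 12 months and none at 24 months by edgeR, against 9.36% and 9.01% of all genes. TYROBP, the adaptor DAP12, was at 8.83, 23.4 and 26.9 CPM at 1 month and from 3.83 to 8.36 CPM later (log2 fold change -2.18 and -1.58, edgeR adjusted p = 0.0243 and 0.0758), and FCER1G changed by -3.23 and -2.27 (edgeR adjusted p = 0.0227 and 0.0531). Of the cytokine and receptor list, 3 of 9 tested were called lower at 12 months and 2 of 8 at 24 months, against the same shares of all genes. TNF, an inflammatory cytokine, was called at both ages, from 3.94, 18.8 and 6.19 CPM to at most 1.16 CPM (log2 fold change -4.26 and -3.34, edgeR adjusted p = 0.0154 and 0.0198). CD80, a costimulatory ligand, and TGFB1, a regulatory cytokine of many cell types, were called at 12 months (-2.68 and -2.36, edgeR adjusted p = 0.0202 and 0.0386), and CCR2, the monocyte chemokine receptor, at 24 months (-2.83, edgeR adjusted p = 0.0419). Over all 9 lists and PTPRC, 31 of 108 tested genes were called lower at 12 months and 25 of 106 at 24 months, against 9.36% and 9.01% of all genes. In the lists of lysosome genes, myeloid transcription factors and lipopolysaccharide sensing, 2 of 15, 2 of 13 and 0 of 10 were called at 12 months. At 24 months these counts were 2 of 14, 1 of 13 and 1 of 10.

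**Figure D3:**
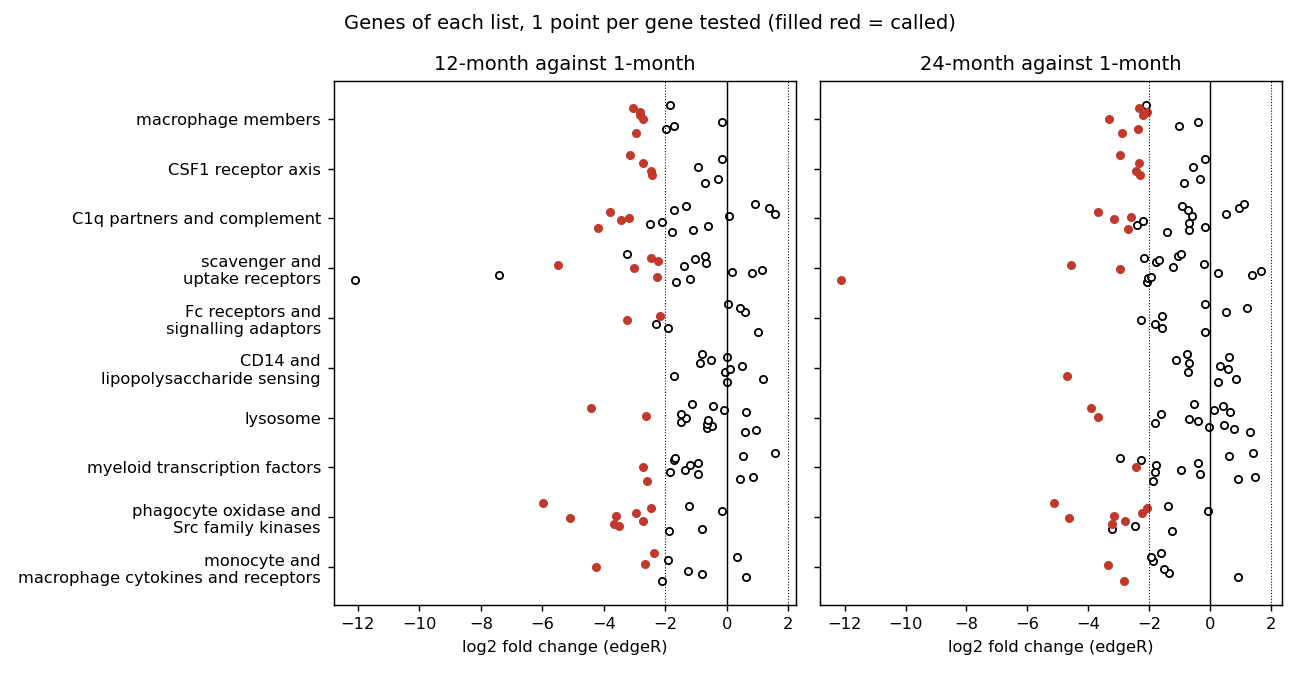
Fitted log2 fold change of every tested gene of the macrophage members and of 9 lists of related genes, older against 1-month goats; filled red points were called and the dotted lines mark a log2 fold change of 2. All red points lie on the left, and the list of CD14 and lipopolysaccharide sensing holds 0 red points at 12 months and 1 at 24 months.

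Set against the common leukocyte gene PTPRC, which fell further than any member, macrophage transcripts made larger ratios in the older libraries. PTPRC, which encodes the surface phosphatase CD45 of all white blood cells, was at 245, 540 and 313 CPM at 1 month, from 13.4 to 14.9 CPM at 12 months and from 15.9 to 17.3 CPM at 24 months. It fell 25.4-fold to 12 months and 20.5-fold to 24 months (log2 fold change -4.67 and -4.36, edgeR adjusted p = 0.00590 and 0.00321). T cell and thymocyte markers moved with it, from 1703 to 12028 CPM in sum at 1 month to at most 27.5 CPM later, and PTPRC and that sum were both highest in 1-month replicate 2. The part of these cells in the ratios was not tested. Counts of each member per count of PTPRC were higher in all 12-month libraries than in all 1-month libraries for 9 of 9 members, and in all 24-month libraries for 7 of 9, where CD68 and MRC1 overlapped. A gene that falls less than PTPRC gains in its ratio to PTPRC. The median log2 fold change over all genes tested was -0.02 at 12 months and -0.01 at 24 months. Larger ratios are therefore not particular to the members, and the share of all genes with such ratios was not computed. For C1QA the ratio was 0.513, 0.272 and 1.49 at 1 month, 2.86, 1.91 and 2.32 at 12 months and 2.37, 2.97 and 3.55 at 24 months, while the CPM of C1QA was lower at both older ages. For CSF1R the ratio was 0.354, 0.226 and 0.832 at 1 month and from 2.42 to 6.34 in the older groups. Each ratio whose groups did not overlap gave p = 0.1, the smallest value of the two-sided exact permutation test with 3 against 3.

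**Figure D4:**
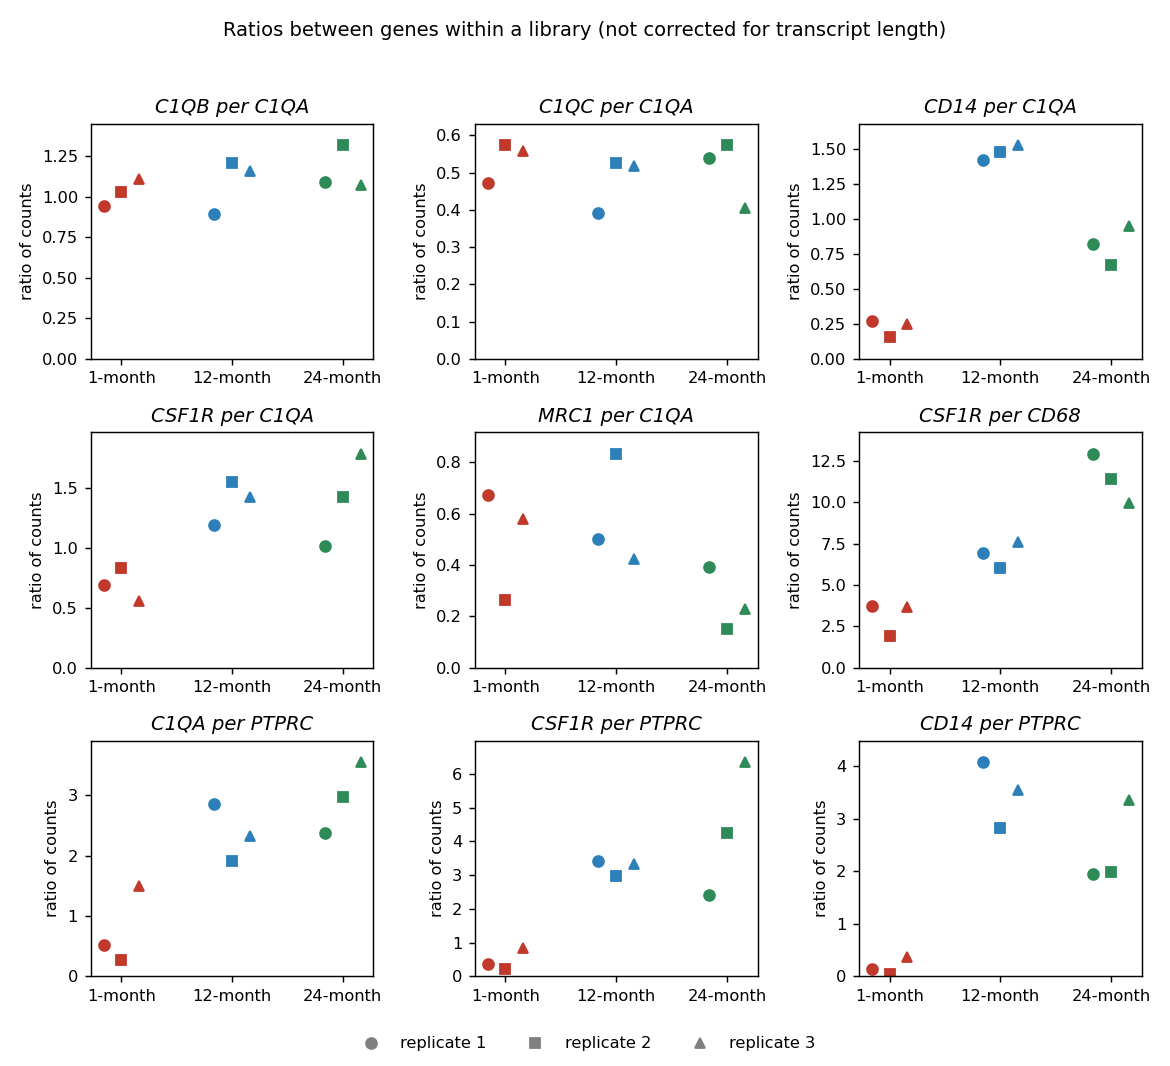
Ratios of expected counts of 2 genes within each library, by age, on linear axes that start at 0 and without correction for transcript length. The panels of C1QB and C1QC per C1QA show overlapping ages, those of CD14 and CSF1R per C1QA and of 3 members per PTPRC show the 1-month libraries below the older ones.

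CSF1R also stood in another proportion to C1QA and CD68, which both fell further than CSF1R from 1 month. A gene that falls less gains in such a ratio, and the share of all genes with such ratios was not computed. Of 8 ratios of members to C1QA, 3 were apart and higher at 12 months than at 1 month, and 2 at 24 months. Of 3 ratios to CD68, 1 was so at each older age, and those of MRC1 and CD163 overlapped for every pair of ages. Counts of CSF1R per count of C1QA were from 0.557 to 0.831 at 1 month, from 1.19 to 1.55 at 12 months and from 1.02 to 1.79 at 24 months, with the 1-month group below both older groups. Counts of CSF1R per count of CD68 were from 1.88 to 3.74 at 1 month, from 6.05 to 7.62 at 12 months and from 9.96 to 12.9 at 24 months, and no pair of ages overlapped (two-sided exact permutation p = 0.1 for each, the smallest possible). For MRC1 per C1QA, the ranges were from 0.265 to 0.673 at 1 month, from 0.425 to 0.834 at 12 months and from 0.152 to 0.392 at 24 months, so that only the older groups were apart from each other.

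Marker lists of other cell types moved with age too, and their part in the levels of the macrophage genes was not tested. The 11 T cell and thymocyte genes summed to 3454, 12028 and 1703 CPM at 1 month and to between 9.53 and 27.5 CPM in the older libraries. All 11 were called lower at both ages, against 9.36% of all genes at 12 months and 9.01% at 24 months. The 6 thymic epithelium genes summed to 276, 1143 and 106 CPM at 1 month and to at most 2.66 CPM later, with PSMB11 and AIRE at 0 counts in all 12-month libraries and AIRE at 0 in all 24-month libraries. Both lists were highest in 1-month replicate 2, in which 0 of the 9 macrophage genes were highest. TBATA and CCL25 of the thymic list were at 419 and 336 CPM in that library, and CD8B was at 1570 CPM.

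The 7 neutrophil genes had the same leading library as the macrophage genes. They summed to 12.8, 55.8 and 1035 CPM at 1 month and to between 1.56 and 7.88 CPM in the older libraries. Of the 7 genes, 3 were called lower at 12 months and 5 at 24 months, against 9.36% and 9.01% of all genes. S100A12 and MPO, proteins of neutrophil granules and cytosol that monocytes also make, were at 345 and 312 CPM in 1-month replicate 3 and at most 15.7 CPM in every other library. B cell genes summed to 94.6, 298 and 263 CPM at 1 month and to between 9.91 and 26.9 CPM later. CD79A, a B cell receptor gene, and CR2, a complement receptor gene, were at up to 269 and 160 CPM. Dendritic cell genes summed to 93.6, 309 and 167 CPM at 1 month and to between 5.40 and 13.0 CPM later, with LAMP3 and CCR7 of mature dendritic cells at up to 152 and 128 CPM. Both sums were highest in 1-month replicate 2, through CD79A in the B cell list and LAMP3 and CCR7 in the dendritic cell list, whereas 5 of the 6 B cell genes and 4 of the 7 dendritic cell genes were highest in 1-month replicate 3, as the macrophage genes were. All 6 B cell genes were above 3 counts in at least 1 library of each age.

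Gland and stromal lists moved in other ways. Salivary epithelium was lower at 1 month, where KLK1 and SLC12A2, a kallikrein and an ion transporter, were at 9.17 and 45.6 CPM in 1-month replicate 2, and at least 338 and 647 CPM in the other 8 libraries. The 5 fibroblast genes summed to 3245, 844 and 3795 CPM at 1 month and to between 427 and 1005 CPM later, with COL1A1 and COL1A2, the chains of collagen I, at 2099 and 1279 CPM in 1-month replicate 3. The 6 endothelial genes, with VWF and PECAM1 at up to 330.4 and 163 CPM, summed to between 336 and 680.5 CPM over all libraries, with overlapping ages. Genes of red blood cells (HBA, SLC4A1) and of skeletal muscle (ACTA1, CKM) were at most 13.9 and 28.8 CPM in any library. Of 5 listed red blood cell genes 3 were found in the table.

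**Figure D5:**
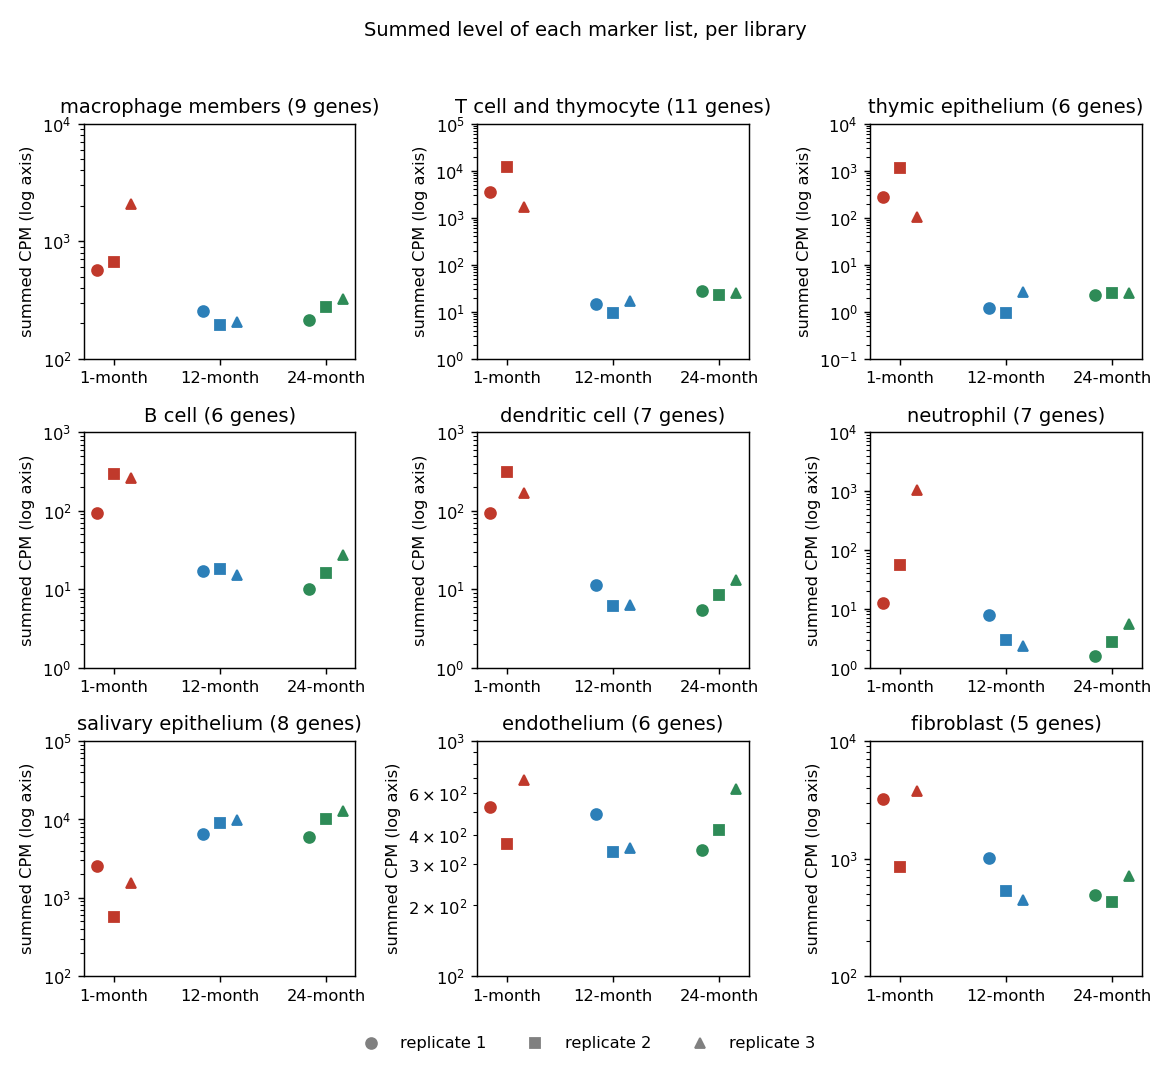
Summed CPM of the macrophage genes and of 8 marker lists in each library, on log axes, by age; circles, squares and triangles are replicates 1, 2 and 3. The macrophage and neutrophil panels are highest in 1-month replicate 3, and the sums of T cells, thymic epithelium, B cells and dendritic cells in 1-month replicate 2, although 5 of 6 B cell and 4 of 7 dendritic cell genes are highest in replicate 3.

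Between 12 and 24 months no macrophage gene passed the test. Fitted values were higher at 24 months for 5 members and lower for 4, and the median log2 fold change was 0.03, against 0.04 over all genes. C1QB, C1QC, C1QA and CSF1R had an unadjusted p under 0.05 in edgeR's quasi-likelihood test, each with the higher value at 24 months, so 4 of 9 members did so against 8.4% of all genes. The log2 fold changes were 0.74 for C1QB (SE 0.238), 0.71 for C1QC (SE 0.241), 0.61 for C1QA (SE 0.256) and 0.70 for CSF1R (SE 0.312), and the edgeR adjusted p was 0.426 for each. C1QB and C1QC did not overlap between these ages, 2 of 9 members against 7.93% of all genes. Without 24-month replicate 1, these 4 genes had edgeR adjusted p-values of 0.00989, 0.0237, 0.0353 and 0.0108 in the same order, still under the fold threshold, but in that fit 32.5% of all genes had an adjusted p under 0.05. MRC1 and CD163 had the lower fitted values at 24 months (log2 fold change -0.58 and -0.39, edgeR adjusted p = 0.439 and 0.550), and CD68 was at 0.03 (95% interval from -0.88 to 0.95, edgeR adjusted p = 0.971), a value whose sign turned under other scalings of the libraries.

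The members varied together over the libraries, with CD14 least alike to the rest. As a description over 9 libraries, which share the step from 1 month to later ages and the high 1-month replicate 3, Pearson r of log2(CPM + 1) of each member with the mean of the other 8 was 0.970 for C1QA, 0.963 for C1QB, 0.955 for C1QC, 0.929 for CD163, 0.907 for MRC1, 0.897 for CSF1R, 0.864 for CD68, 0.852 for AIF1 and 0.424 for CD14. Among 13982 other genes with a mean of at least 1 CPM, the pattern most like the mean of the members was that of a gene listed as stabilin-1-like (LOC108638604, r = 0.990). It was at 24.0, 21.3 and 78.4 CPM at 1 month and from 6.69 to 12.5 CPM later. LOC102180906, listed as serpin B9, had r = 0.988, and CFP, the properdin gene of the complement list, had r = 0.986. MAF, a transcription factor of macrophages and lymphocytes, and LYL1, a factor of blood cell precursors, both had r = 0.983. FCN1, the lectin ficolin-1 of monocytes, had r = 0.982 and was at 224 CPM in 1-month replicate 3 against 4.09 to 14.6 CPM in the other 1-month libraries. LOC102190717, listed as lymphotactin, had r = 0.980, and AZU1, a granule protein of neutrophils and monocytes, PLBD1, a phospholipase of granules, and SMPD3, a sphingomyelinase, had r = 0.979 each. AZU1 was at 1.76, 4.64 and 52.8 CPM at 1 month and at 0 counts in all older libraries.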

How the data were processed

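Submandibular gland RNA of 9 goats was depleted of ribosomal RNA, reverse transcribed with dUTP strand marking and sequenced on an Illumina HiSeq instrument. The authors removed ribosomal reads with Bowtie2 2.2.8, mapped what remained to the goat reference with TopHat2 2.1.1, assembled transcripts with Cufflinks and quantified them with RSEM. The genome build is not given in the sources used here. The deposited table gives an expected count for each transcript in each library, normalized for neither depth nor length. Whole numbers made 25.1% of the values above 0 in 24-month replicate 3, 2.22% in 12-month replicate 2 and from 0.835 to 0.895% in the other 7 libraries, a difference whose cause was not tested.

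The 52739 transcripts, 42686 known and 10053 new, were summed to 21224 genes by the names in the table and, for known transcripts, by the RefSeq annotation of assembly GCF_001704415.2 (ARS1.2), which named 42652 of them. Rows with no gene name held from 0.253 to 6.01% of the counts of a library and were left out. CD163 and 12 other listed genes were matched through the product names in the table, a step taken once the values had been seen. No sequences are printed, because the reference used here holds none.

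Sums were rounded to whole numbers, and each pair of ages was tested on its 6 libraries with edgeR 4.0.16 in R 4.3.3 (filterByExpr, TMM, glmQLFit, glmQLFTest, Benjamini-Hochberg over all genes), after a check on simulated data. The thresholds follow the study's, 0.05 for the adjusted p and 2 for the absolute log2 fold change, without its FPKM threshold, which needs lengths. Ratios within libraries were compared on the log2 scale by exact permutation tests in scipy 1.17.1. Alternatives were other scalings, DESeq2 1.42.0, edgeR's exact test, no filter, 1 fit of all 9 libraries, transcripts in place of sums, a replicate block and each library left out in turn.

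The members and all gene lists were chosen with earlier results of these data known, so their directions are not independent evidence. The text names all 9 members, from each related list the called genes (at most the 3 with the smallest p in each direction) and fixed partners of members, from each list of other cell types the 2 genes with the highest mean CPM, and the 10 genes most alike in pattern. AQP5, FOXN1, PSMB11, AIRE, GAS6 and MERTK were added after their values were seen. Some genes that the rule for named genes covers are not reported here by name, and the counts and medians of their lists include them.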

Additional observations from a re-analysis of the deposited data

How the results depend on the processing

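Members called lower between 1 and 12 months numbered 5, and 5 to 7 with other scalings, without a filter, in 1 fit of all 9 libraries, by the adjusted p alone, or with edgeR's exact test or DESeq2's Wald test. The replicate block gave 2 and transcripts tested on their own 1, and leaving out 1 library gave from 0 to 7. Between 1 and 24 months 6 were called, 6 or 7 under the same alternatives, 4 with the block, 0 with transcripts on their own, and from 0 to 7 without 1 library. Over all genes 1678 were called between 1 and 12 months, 2660 by the adjusted p alone, 895 with the block, 810 by transcripts and from 0 to 1833 without 1 library. Between 1 and 24 months 1946 were called, 1780 with the block, 443 by transcripts and from 306 to 2116 without 1 library. Between 12 and 24 months 0 were called, 1 with no filter, 10 by DESeq2's Wald test, 13 by edgeR's exact test, 7 with the block and from 0 to 156 without 1 library, and no member was called under any alternative run. The unadjusted p of edgeR's quasi-likelihood test was under 0.05 for 1556 genes between those ages. The numbers do not pair the animals: same-numbered libraries deviated together by r = -0.0996, -0.102 and -0.0955 between 1 and 12 months, 0.342, 0.152 and -0.188 between 1 and 24 months, and -0.0466, -0.0929 and -0.0311 between 12 and 24 months, so the block stands here only. The sign of CD14 turned between 1 and 12 months with the block (0.17) and without 1-month replicate 3 (0.78), in a range from -0.63 to 0.78 over all libraries left out, and between 1 and 24 months without that library (0.58), in a range from -0.80 to 0.58. The sign of CD68 between 12 and 24 months turned to -0.0016 with DESeq2's size factors and with its Wald test, -0.042 with upper-quartile scaling, -0.010 in 1 fit of all libraries, -0.097 with the block, -0.085 without 12-month replicate 3 and -0.47 without 24-month replicate 3, in a range from -0.47 to 0.35. Of 117 member values under alternatives in each comparison, 86 kept direction and side of the thresholds between 1 and 12 months, 88 between 1 and 24 months and 110 between 12 and 24 months. The cause of these changes was not tested. Fits with fewer libraries have fewer degrees of freedom, and the part of this was not tested either. With 3 goats an age, the 95% interval of a member's log2 fold change spanned up to 3.39 units (AIF1 between 1 and 24 months), so small differences were not detectable.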
